A study of Arabidopsis thaliana with 24 samples.

Results

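The miR472 and miR825 entries are 3 of the 350 mature miRNA sequences listed for every library, namely ath-miR472-3p, ath-miR472-5p, and ath-miR825. They were chosen by name, as all entries of the families miR472 and miR825, with earlier results of these data known. The naming rule itself used no threshold on a measured value. Their level in RPM, the reads of a miRNA scaled to a fixed number of reads, was then read in every library. Small RNA was sequenced from whole seedlings of Arabidopsis thaliana, 2 weeks old, that had received 100 µM abscisic acid (ABA) or a mock treatment for 4 h. The 4 genotypes were WT Col-0 and 1 T-DNA insertion mutant each of abi1td, mkkk17, and mkkk18. Every genotype had 3 mock and 3 ABA libraries, 24 in all. The insertions lie in the genes of ABI1, a protein phosphatase that holds ABA signaling down, and of MAPKKK17 and MAPKKK18, kinases of an ABA-activated cascade. Each mutant is represented by a single insertion line, and the mRNAs of the disrupted genes were not measured, so the genotype labels could not be checked against them.

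Plants sense many pathogens inside the cell with NLR proteins, which carry a nucleotide-binding site (NBS or NB-ARC) and leucine-rich repeats (LRR). NLRs fall into a class with a coiled-coil N terminus (CC-NBS-LRR) and a class with a Toll/interleukin-1 receptor N terminus (TIR-NBS-LRR). In Arabidopsis, miR472-3p is known to cut transcripts of CC-NBS-LRR genes and, being longer than the usual miRNA, to start the production of secondary small interfering RNAs from the cut transcripts. The MIR825 precursor is known for an opposite arm that acts in the same way on TIR-NBS-LRR genes. Only small RNAs were measured here, so nothing below is a measurement of an NLR transcript.

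The mature sequences are shown as deposited, 5′ to 3′, with the seed (bases 2 to 8) in capitals, because their pairing defines the genes considered below.
ath-miR472-3p: tTTTTCCTactccgcccatacc
ath-miR472-5p: aTGGTCGAagtaggcaaaatc
ath-miR825: tTCTCAAGaaggtgcatgaac
The miR472-3p sequence has 22 nt and a GC content of 50%, and the other 2 have 21 nt and 42.9% GC each. Of the 350 entries 39 have 22 nt and 270 have 21 nt. No seed was shared among the 3 members. One other entry, ath-miR865-3p, has the seed of miR472-3p, and its highest level in any library was 0.3 RPM.

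Each of the 3 sequences matched the TAIR10.1 genome at 1 place. Both arms of miR472 lie in MIR472 (AT1G12294), at chr1:4182132-4182299 on the minus strand, miR472-5p at chr1:4182266-4182286 and miR472-3p at chr1:4182143-4182164. The whole precursor of 168 nt falls in a 5′ UTR exon of 1 annotated transcript of AT1G12290, a CC-NBS-LRR gene on the same strand. The next annotated genes are AT1G12300, 711 bases away, and SUMM2, an NLR gene 4111 bases away. miR825 lies at chr2:11159774-11159794 in MIR825 (AT2G26211, chr2:11159660-11159845, plus strand), which overlaps the transcribed pseudogene AT2G26220 on the same strand. It takes bases 115 to 135 of a precursor of 186 nt and is thus the arm on the 3′ side.

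The transcripts of 27444 genes were searched for sites pairing without gaps to each member. A mismatch scored 1 and a G:U pair 0.5, both doubled at miRNA positions 2 to 13, and a site was kept up to a score of 4. Sites for miR472-3p were present in 16 genes, 0.0583% of those searched. Genes annotated as CC-NBS-LRR held 9 of these sites (9 of 25 genes of that class, 36%). Genes of neither named class, but annotated with NB-ARC or NBS-LRR or as disease resistance proteins, held 5 (of 31, 16.1%). None of the 91 TIR-NBS-LRR genes held one. The remaining 2 of 27297 other genes were RFL1 and the transporter gene ABCG38.

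The 5 genes with the lowest scores are shown by their sites, 5′ to 3′ on the transcript, with the bases that form Watson-Crick pairs with miR472-3p in capitals.
AT1G51480: GGTATGGGgGGAGTAGGAAAAA
AT5G43740: GGTATGGGgGGAGTAGGAAAAA
AT1G12290: GGcATGGGtGGAGTAGGAAAAA
RFL1: GGTATGGGtGGAGTAGGcAAAA
AT5G63020: GGTATGGGtGGAGTAGGtAAAA
All 5 sites lie in coding sequence. AT1G51480 (chr1:19092853-19092874, minus strand) and AT5G43740 (chr5:17566541-17566562, plus strand) scored 1.0 with 21 of 22 bases paired. AT1G12290 (chr1:4180683-4180704, minus strand), whose 5′ UTR exon holds the MIR472 precursor, scored 1.5. RFL1 (chr1:4141494-4141515, plus strand) and AT5G63020 (chr5:25285441-25285462, minus strand) scored 2.5. The sites are matches in sequence and no cleavage was measured.

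No gene held a site up to that score for miR472-5p or for ath-miR825, so among the members the search placed sites in NLR genes for miR472-3p alone, and no inference is drawn from the lack of a match. The opposite arm of MIR825 is not among the 350 entries and was not analysed here for its level. Its sequence is in the study's list of mature sequences and takes bases 54 to 75 of the precursor.
opposite arm of MIR825: tCAAGCACcagctcgaagaagc
It has 22 nt and found sites in 19 genes (0.0692% of those searched), of which 16 are TIR-NBS-LRR genes (17.6% of the 91). The lowest scores were 1.0 for AT5G38850 and 1.5 for AT4G14370, both of the TIR-NBS-LRR class. The values given below for miR825 therefore belong to the arm for which the search found no NLR site.

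All 3 members were above 0 in all 24 libraries, but at unequal levels. miR472-3p averaged 184 RPM over the 24 libraries, place 22 of 350, and lay between places 11 and 29 in single libraries. miR472-5p averaged 3.31 RPM (place 91) and miR825 averaged 2.05 RPM (place 108). Libraries held 6127364 to 14199469 adapter-clipped reads, so that 3 reads correspond to 0.211 to 0.49 RPM. The lowest values of miR825, 0.5 RPM, are near that floor and carry a large counting error, which the floor alone describes. The total to which the RPM refer is not given in the sources used here.

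The 350 entries together took 16515 to 78277 RPM per library, with the lowest sum in the first mock library of mkkk17. For the tests RPM were therefore rescaled by the median of ratios, which divides each library by its typical ratio to the mean library. As log2 values, the dividing factors of ABA libraries minus those of mock libraries came to -0.51 (WT Col-0), -0.13 (abi1td), 1.40 (mkkk17), and -0.21 (mkkk18). Levels below are RPM as deposited, and fold changes are on the log2(scaled RPM + 0.5) scale, which understates changes of low miRNAs.

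**Figure D1:**
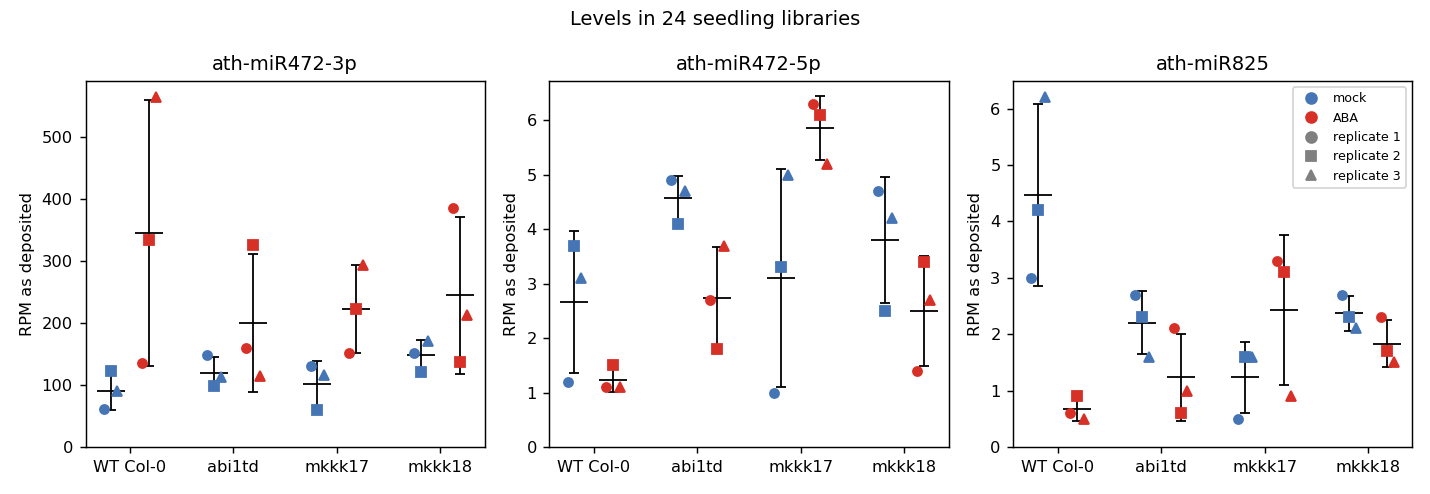
Deposited RPM of each member in the 24 libraries, by genotype, with mock in blue and ABA in red; marker shapes are replicate numbers and bars show mean ± SD (n = 3). In WT Col-0 the ABA libraries of miR472-3p (135.7 to 564.7 RPM) lie above the mock libraries (60.4 to 121.7 RPM) and those of miR825 (0.5 to 0.9 RPM) lie below (3 to 6.2 RPM).

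In WT Col-0, miR472-3p was higher and miR825 lower after ABA. For miR472-3p the mock libraries held 60.4, 121.7, and 90.4 RPM (90.8 ± 30.7, mean ± SD, n = 3) and the ABA libraries held 135.7, 333.9, and 564.7 RPM (345 ± 215). The ranges did not overlap, and the ABA libraries themselves differed widely, with the first close to the highest mock library. After rescaling, the log2 fold change was 2.26 (SE 0.32, 95% confidence interval 1.59 to 2.93), a 4.80-fold rise (limma, Benjamini-Hochberg adjusted p = 2.8e-05). Of the 125 miRNAs tested, 2 had a larger positive change. In whole seedlings, more cells that make a miRNA and more of it per cell cannot be told apart.

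For miR825, the mock libraries of WT Col-0 held 3, 4.2, and 6.2 RPM (4.47 ± 1.62) and the ABA libraries 0.6, 0.9, and 0.5 RPM (0.667 ± 0.208). All ABA libraries lay below all mock libraries, and the mean as deposited was 6.70 times higher in mock. miR825 fell by 1.66 on the log2 scale (SE 0.35, 95% confidence interval -2.40 to -0.92, limma adjusted p = 0.000948), and 17 of the 125 tested miRNAs fell further. It met the filter, a mean of at least 1 RPM over the 6 libraries, through its mock libraries, so its place depends on that filter. Without a filter its adjusted p was 0.00659 (limma).

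miR472-5p, the strand opposite to miR472-3p in the same precursor, was not called in WT Col-0. It held 1.2, 3.7, and 3.1 RPM in mock (2.67 ± 1.31) and 1.1, 1.5, and 1.1 RPM in ABA libraries (1.23 ± 0.23). The ranges overlapped through the first mock library. The log2 fold change was -0.36 (SE 0.36, 95% confidence interval -1.12 to 0.40, limma adjusted p = 0.386).

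Thus 2 of the 3 members were called in WT Col-0, where 75 of 125 miRNAs tested were called (60%), 33 higher (26.4%) and 42 lower (33.6%). Because of how the members were chosen, these calls place them among all miRNAs tested and give no independent support. Labels name the libraries as biological replicates and do not say how plants were pooled.

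In abi1td no member was called. miR472-3p held 148, 97.5, and 113.3 RPM in mock (120 ± 25.8) and 159.7, 326.1, and 114.4 RPM in ABA libraries (200 ± 111). The second ABA library stood apart from the others, and the third lay within the mock range. The log2 fold change was 0.75 (SE 0.48, 95% confidence interval -0.35 to 1.85, limma adjusted p = 0.357), and it was 0.06 without that second ABA library.

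miR472-5p in abi1td held 4.9, 4.1, and 4.7 RPM in mock and 2.7, 1.8, and 3.7 RPM in ABA libraries. These ranges did not overlap, but the log2 fold change of -0.57 did not pass the test (SE 0.32, limma adjusted p = 0.343). miR825 held 2.7, 2.3, and 1.6 RPM in mock and 2.1, 0.6, and 1 RPM in ABA libraries, with overlap (log2 fold change -0.64, SE 0.32, limma adjusted p = 0.325). Of 129 miRNAs tested in abi1td 2 were called (1.55%).

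In mkkk17 no member was called, and the direction of all 3 turned on the scaling. miR472-3p held 130.4, 59.6, and 115.4 RPM in mock (102 ± 37.3) and 152.2, 222.2, and 292.6 RPM in ABA libraries (222 ± 70.2). As deposited, the ABA libraries lay above the mock libraries without overlap. After rescaling the log2 fold change was -0.24 (SE 0.43, 95% confidence interval -1.16 to 0.67, limma adjusted p = 0.885), and from RPM as deposited it was 1.15 (adjusted p = 0.0647). It was 0.35 without the first mock library and 0.02 without the first ABA library.

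The low members of mkkk17 gave the same picture. miR472-5p held 1, 3.3, and 5 RPM in mock and 6.3, 6.1, and 5.2 RPM in ABA libraries, without overlap as deposited, and its log2 fold change was -0.18 after rescaling and 1.01 as deposited (limma adjusted p = 0.904 and 0.117). It was 0.036 without the second mock library. miR825 held 0.5, 1.6, and 1.6 RPM in mock and 3.3, 3.1, and 0.9 RPM in ABA libraries, which overlap. Its log2 fold change was -0.31 after rescaling and 0.71 as deposited (limma adjusted p = 0.817 and 0.179), and 0.056 without the third ABA library. Of 129 miRNAs tested in mkkk17 4 were called (3.1%).

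In mkkk18 no member was called either. miR472-3p held 150.9, 121.5, and 170.4 RPM in mock (148 ± 24.6) and 384.6, 137.5, and 212.2 RPM in ABA libraries (245 ± 127). The first and the third ABA libraries lay above the mock libraries and the second among them. The log2 fold change was 0.82 (SE 0.37, 95% confidence interval 0.03 to 1.61, limma adjusted p = 0.255), and it passed the threshold only without the second ABA library (1.19, adjusted p = 0.0499).

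miR472-5p in mkkk18 held 4.7, 2.5, and 4.2 RPM in mock and 1.4, 3.4, and 2.7 RPM after ABA (log2 fold change -0.36, SE 0.36, limma adjusted p = 0.641). miR825 held 2.7, 2.3, and 2.1 RPM in mock and 2.3, 1.7, and 1.5 RPM after ABA (log2 fold change -0.14, SE 0.29, limma adjusted p = 0.853). Both pairs of ranges overlapped. Of 133 miRNAs tested in mkkk18 4 were called (3.01%).

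**Figure D2:**
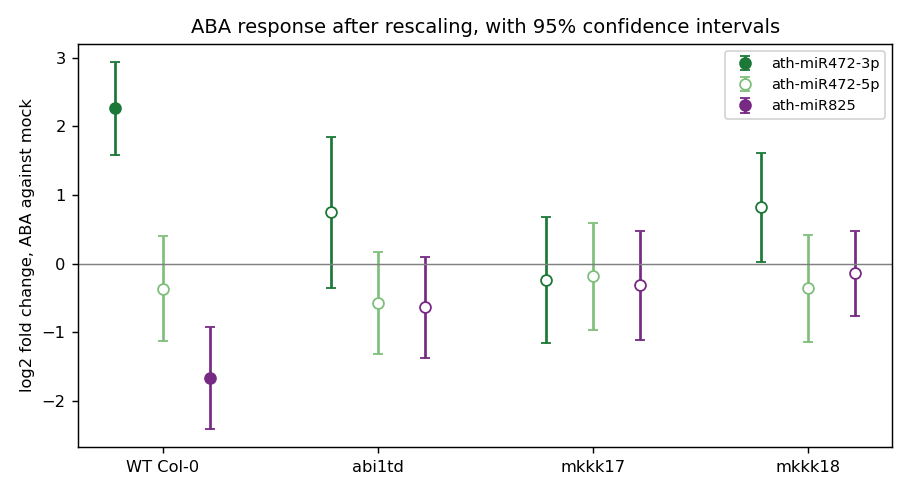
Log2 fold change of each member, ABA against mock, in each genotype after rescaling, with 95% confidence intervals from limma (6 libraries per genotype); filled points have an adjusted p under 0.05. The filled points are miR472-3p (2.26) and miR825 (-1.66) in WT Col-0.

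Whether the mutants differed from WT Col-0 in the ABA response was tested as a difference of responses in a fit of all 24 libraries, whose WT Col-0 libraries are shared by the 3 comparisons. For miR472-3p the response in mkkk17 was lower than that in WT Col-0 (log2 difference -2.59, SE 0.67, 95% confidence interval -3.98 to -1.21, limma adjusted p = 0.00742). Of 129 miRNAs tested in that difference 44 were called (34.1%), with 20.2% higher and 14% lower. The call held without any 1 of the 12 libraries (adjusted p from 0.00295 to 0.0376), but from RPM as deposited the difference was -0.60 (adjusted p = 0.425).

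The corresponding differences of miR472-3p in abi1td (-1.59, SE 0.67, adjusted p = 0.169) and mkkk18 (-1.52, SE 0.67, adjusted p = 0.101) did not pass the limma test. Their 95% confidence intervals were -2.98 to -0.21 and -2.91 to -0.14. Leaving out 1 library brought each past the threshold. The value for abi1td was -2.23 (adjusted p = 0.0068) without the second abi1td ABA library. For mkkk18 it was -1.91 (adjusted p = 0.0451) without the first ABA library of WT Col-0.

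For miR825 the response in mkkk17 exceeded that in WT Col-0 by 1.29 on the log2 scale (SE 0.47, limma adjusted p = 0.0348) and in mkkk18 by 1.47 (SE 0.47, adjusted p = 0.0398). In abi1td the difference was 0.95 (SE 0.47, 95% confidence interval -0.02 to 1.92, adjusted p = 0.23). In the mkkk18 difference 17 of 129 miRNAs were called (13.2%, with 10.1% higher and 3.1% lower) and in the abi1td difference 2 (1.55%).

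Neither call for miR825 held without every library. The mkkk17 call was lost without any 1 of 6 of the 12 libraries (adjusted p from 0.076 to 0.107). These were the third mock library and the third ABA library of WT Col-0 and the first and the third mock libraries and the first and the second ABA libraries of mkkk17. The mkkk18 call was lost without any 1 of 9 libraries (adjusted p from 0.0501 to 0.105), and held without the first or second ABA library of WT Col-0 or the third ABA library of mkkk18. After a correction for GC content both were lost (0.83, adjusted p = 0.164, and 1.14, adjusted p = 0.0782). From RPM as deposited the mkkk17 difference was 2.76 (adjusted p = 0.000299) and that in mkkk18 was 1.75 (adjusted p = 0.0968).

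miR472-5p was not called in any difference of responses. The values were -0.29 (abi1td), 0.10 (mkkk17), and -0.05 (mkkk18) (SE 0.49 each, limma adjusted p = 0.763, 0.873, and 0.968). Their signs changed with the scaling or with single libraries, and from RPM as deposited the mkkk17 difference was 1.79 (adjusted p = 0.0151).

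Among mock libraries no member was called between a mutant and WT Col-0. For miR472-3p the log2 differences were 0.72, 1.15, and 0.60 in abi1td, mkkk17, and mkkk18, and for miR472-5p they were 1.03, 0.93, and 0.39. For miR825 they were -0.59, -0.79, and -0.83. The limma adjusted p ranged from 0.136 to 0.624 over these 9 values. Of 129 miRNAs tested 1, 1, and 0 were called in the 3 mutants (0.775%, 0.775%, and 0%), with 11, 24, and 24 at an unadjusted p under 0.05. From RPM as deposited the miR825 difference in mkkk17 was -1.55 (adjusted p = 0.0186).

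Ordered by mean RPM, the miR472-3p levels ran from WT Col-0 mock (90.8 RPM) through mkkk17 mock (102 RPM), abi1td mock (120 RPM), and mkkk18 mock (148 RPM) to the ABA groups. Those were abi1td (200 RPM), mkkk17 (222 RPM), mkkk18 (245 RPM), and WT Col-0 (345 RPM). All 7 pairs of neighbours in that order had overlapping ranges, so no step stands apart from the spread. WT Col-0 held both the lowest and the highest group mean. After rescaling of all 24 libraries together, its mock libraries held places 24, 22, and 23 for miR472-3p and its ABA libraries places 6, 3, and 1. Rescaled within mkkk17, the mock libraries held 341, 107, and 101 scaled RPM (183 ± 137). The mkkk17 ABA libraries held 91.2, 117, and 208 scaled RPM (139 ± 61.6). The higher mock mean there rests on the first mock library. The placing of all mock groups below all ABA groups is therefore stated only for RPM as deposited.

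For miR825, WT Col-0 held both ends in the opposite sense, with 0.667 ± 0.208 RPM in ABA and 4.47 ± 1.62 RPM in mock libraries. The 6 mutant groups lay between, from 1.23 to 2.43 RPM, and all neighbouring ranges overlapped. For miR472-5p the order ran from 1.23 ± 0.23 RPM in WT Col-0 ABA to 5.87 ± 0.59 RPM in mkkk17 ABA libraries, and that last group did not overlap the next, abi1td mock with 4.57 ± 0.42 RPM. Both the top place and the gap were lost after rescaling, with 3.56 ± 0.31 scaled RPM in mkkk17 ABA, 4.26 ± 0.81 in abi1td mock, and 4.30 ± 1.66 in mkkk17 mock libraries.

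The 2 arms of MIR472 come from 1 precursor and were counted in the same library, so their ratio needs no scaling between libraries. The arms differ in GC content (50% and 42.9%), so the ratio is not free of any dependence of a library on GC. In WT Col-0, miR472-3p exceeded miR472-5p 50.3, 32.9, and 29.2 times in mock and 123.4, 223, and 513 times in ABA libraries. The ranges did not overlap, and the log2 ratio was higher in ABA libraries by 2.73 (exact permutation test, two-sided, p = 0.1, the smallest that 3 against 3 libraries allow). With 1.1 to 1.5 RPM of miR472-5p in those ABA libraries, the ratio rests on few reads of that arm.

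In abi1td the ratios were 30.2, 23.8, and 24.1 in mock and 59.1, 181, and 30.9 in ABA libraries, also without overlap (log2 difference 1.42, exact permutation test, p = 0.1). The third ABA library missed the mock range by a small margin. With 0.5 RPM added to both arms the log2 difference was 1.31 (exact permutation test, p = 0.2), and without the second ABA library it was 0.73. In mkkk17 they were 130, 18.1, and 23.1 in mock and 24.2, 36.4, and 56.3 in ABA libraries (-0.04, exact permutation p = 1.0), and the first mock library was the highest of the 6. Without that library the log2 difference was 0.85, and without the first ABA library it was 0.26. In mkkk18 they were 32.1, 48.6, and 40.6 in mock and 275, 40.4, and 78.6 in ABA libraries (1.26, exact permutation p = 0.3).

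**Figure D3:**
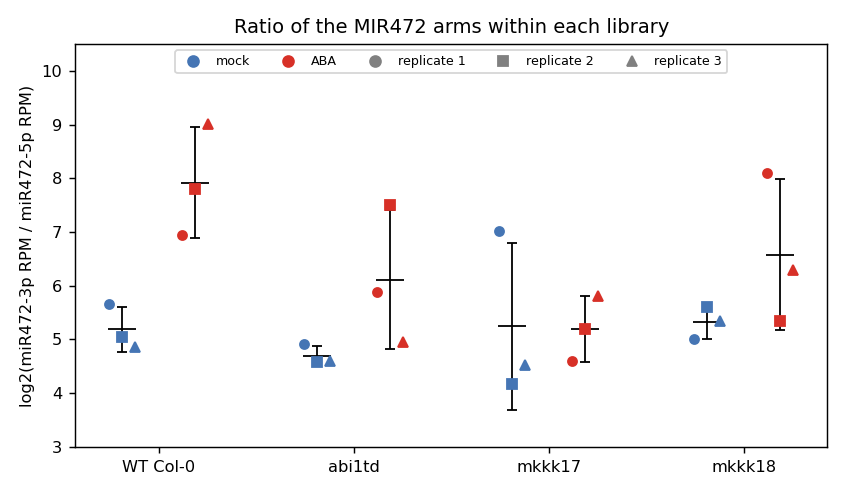
Log2 of the ratio of miR472-3p to miR472-5p in deposited RPM, in each of the 24 libraries by genotype, with mock in blue and ABA in red; bars show mean ± SD (n = 3). ABA libraries lie above mock libraries without overlap in WT Col-0 and abi1td, and the first mock library of mkkk17 lies at 7.03, above the other mock libraries.

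The GC content of the mature sequences moved with the ABA response over all miRNAs tested. In WT Col-0 the correlation of GC percentage with log2 fold change was 0.64 across 125 miRNAs (Spearman 0.62), which share libraries and are not independent. For abi1td it was 0.48, for mkkk17 -0.06, and for mkkk18 0.49. Its part in the members' results was not tested as such. Each member was set beside miRNAs within 5 percentage points of its own GC content, and the fits were repeated with a GC correction.

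In WT Col-0, miR472-3p (2.26) stood above 47 of its 48 GC neighbours, whose median log2 fold change was 0.44. miR825 (-1.66) stood below 55 of 60 neighbours, with a median of -0.22, and 5 neighbours were lower. miR472-5p (-0.36) lay amid the same 60, with 33 higher and 27 lower. With the straight line on GC removed from each library, the WT Col-0 values were 2.17 for miR472-3p (limma adjusted p = 0.000239), -1.11 for miR825 (adjusted p = 0.0119), and 0.19 for miR472-5p (adjusted p = 0.644).

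**Figure D4:**
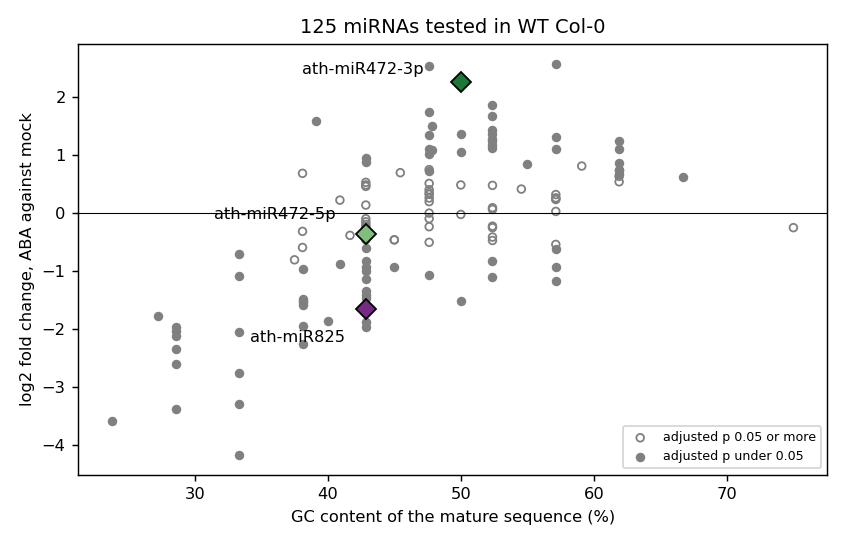
Log2 fold change in WT Col-0, ABA against mock, by GC content of the mature sequence for the 125 miRNAs tested; filled grey points have an adjusted p under 0.05 and diamonds are the 3 members. miR472-3p lies at 50% GC and 2.26, above all but 1 of the miRNAs near its GC content, and miR825 at 42.9% GC and -1.66.

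The slope on GC also varied between libraries of 1 group. The 5 libraries with the steepest positive slopes (0.36 to 0.83 log2 units per 10 percentage points) were the 3 WT Col-0 ABA libraries, the second abi1td ABA library, and the first mkkk18 ABA library. After scaling, miR472-3p was at places 1, 2, 3, 5, and 6 of the 24 libraries in these 5. Place 4 belonged to the first mock library of mkkk17, the mock library with the highest slope (0.16).

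Over the 24 libraries, after rescaling, the 5 of 128 other miRNAs with the highest Pearson correlation with miR472-3p were taken as most like it. These were miR171a-3p (0.96, Spearman 0.93), miR156b-3p (0.95 and 0.93), the shared entry of miR157a-3p and miR157b-3p (0.88 and 0.84), miR399c-5p (0.87 and 0.81), and miR156f-3p (0.80 and 0.72). miR171a-3p is the strand that guides cleavage of GRAS transcription factor mRNAs, while the -3p strands of miR156 and miR157 are the partners of the strands that target SPL genes. The libraries share their groups, depth, and GC slopes, so the correlations are descriptions. Within groups, after group means were removed, the first 2 correlations were 0.92 and 0.95.

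These 5 have GC contents of 47.8% to 57.1% and seeds that differ from that of miR472-3p. All 5 were called higher in WT Col-0, with log2 fold changes from 1.35 (miR171a-3p) to 2.57 (miR156f-3p), beside 26.4% of all 125 tested there. They were picked for their likeness to miR472-3p in these same libraries, so this count is no separate support. The opposite arm, miR472-5p, came at place 78 of 128 (-0.37), and miR825 at place 107 (-0.74). Within groups the correlation of miR825 with miR472-3p was -0.46. It was weaker from RPM as deposited (-0.44, and -0.22 within groups) and after the GC correction (-0.53, and -0.18 within groups).

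**Figure D5:**
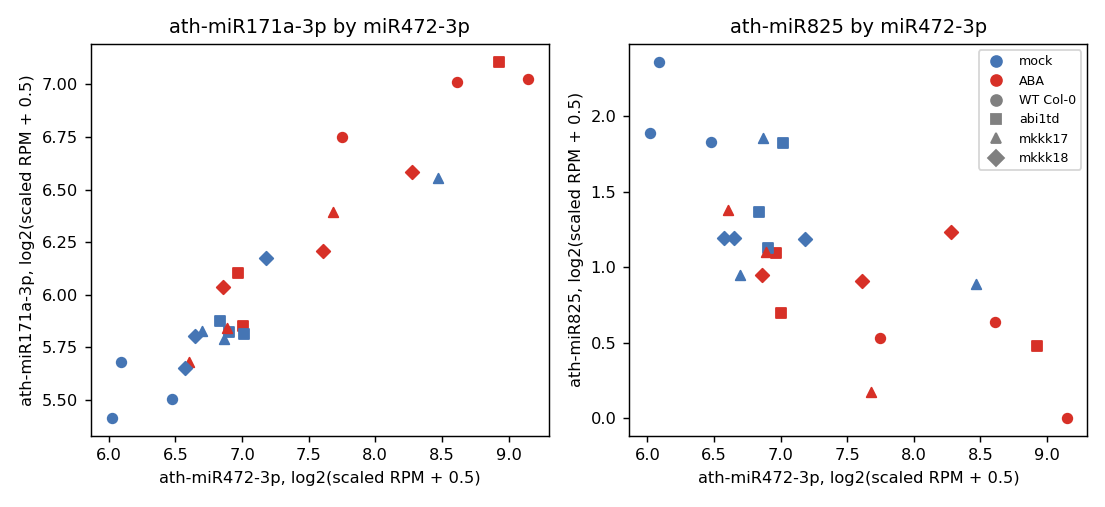
Scaled log2 levels of miR171a-3p (left) and miR825 (right) against miR472-3p in the 24 libraries, with mock in blue, ABA in red, and genotypes by shape. miR171a-3p rises with miR472-3p (r = 0.96) and miR825 falls (r = -0.74), and the first mock library of mkkk17 lies among the ABA libraries at a miR472-3p level of 8.47.

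Other miRNAs of 22 nt, the length of miR472-3p, were called in both directions. Of 38 such entries without the members 9 were tested in WT Col-0, of which 2 rose and 2 fell, where 26.4% of all 125 tested rose and 33.6% fell, with a median log2 fold change of 0.48 beside -0.10 over all 125 tested. miR156a-3p rose from 11.5 ± 2.4 to 21.03 ± 3.36 RPM (log2 fold change 1.35, limma adjusted p = 0.000762) and miR156c-3p from 17.6 ± 4.46 to 25.3 ± 3.88 RPM (1.04, adjusted p = 0.00301). miR403-5p fell by 1.77 and miR777 by 0.88 on the log2 scale (adjusted p = 0.000899 and 0.0137). The ABA mean of miR403-5p was low, at 0.733 ± 0.586 RPM. No other genotype had a call among the 11 tested there. Of all miRNAs tested, 1.55% (abi1td), 3.1% (mkkk17), and 3.01% (mkkk18) were called.

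Families known to start secondary small interfering RNAs in Arabidopsis were listed without the members, as miR161, miR173, miR390, miR393, miR400, and miR828, with all their strands. Of their 12 entries 9 were tested in WT Col-0, with 1 higher, 4 lower, and a median of -0.24, beside 26.4% higher and 33.6% lower over all 125 tested. In the mutants 1 entry was called, lower in mkkk17, where 9 were tested and 2.33% of all 129 tested were lower. The lower ones in WT Col-0 were miR161.2, from 157 ± 50.8 RPM in mock to 5.43 ± 0.31 RPM in ABA libraries, miR393a-3p, miR400, and miR393b-3p. Their log2 fold changes were -4.18, -2.77, -2.60, and -2.25 (limma adjusted p from 8.46e-09 to 6.51e-05). All 4 have a low GC content, from 28.6% to 38.1%, and miR400 averaged 0.9 ± 0.82 RPM in ABA libraries. The entry called higher was that of miR390a-5p and miR390b-5p (0.67, limma adjusted p = 0.0198). The miR393-5p entry was not called (0.48, limma adjusted p = 0.219). miR161 and miR400 target pentatricopeptide repeat genes, and the -3p strands of miR393 are the partners of the strand that targets auxin receptors.

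Of 27 entries in families linked to plant immunity in Arabidopsis (miR160, miR167, miR393, miR396, miR398, miR400, miR773, miR844, and miR863) 21 were tested in WT Col-0. Of these 4 rose and 7 fell, close to the shares over all miRNAs tested (26.4% and 33.6%), and the median of -0.10 equals theirs. Besides the -3p strands of miR393 and miR400, miR844-3p fell from 7.07 ± 2.73 to 1.07 ± 0.81 RPM (log2 fold change -1.96, limma adjusted p = 0.00117). In mkkk18 1 of 21 entries tested was called higher and 1 lower, where 2.26% and 0.752% of all 133 tested were. In mkkk17 1 of 21 was called lower, where 2.33% of all 129 tested were, and in abi1td no entry was called. So few calls allow no comparison with these shares.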

How the data were processed

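The authors clipped adapters from HiSeq small RNA reads, dropped reads that were under 16 nt or lacked the adapter, applied a base quality filter, and catalogued miRNAs with mirPRo against miRBase and TAIR (build not given in the sources used here). They deposited RPM per library, rounded to 1 decimal and not pooled, and tested counts with DESeq2. The deposited RPM hold no counts, so no count test was run. Depth came from the study's clipped read totals and limits precision through counting error only.

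RPM were divided by median-of-ratios factors, and log2(scaled RPM + 0.5) was tested with limma 3.58.1 in R 4.3.3 (variance trend, Benjamini-Hochberg adjustment over all miRNAs tested, threshold 0.05, mean of at least 1 RPM). Within-genotype fits used 6 libraries, and differences between genotypes used 24. Arm ratios were compared by exact permutation. The limma step was tested on simulated data. Sites and loci came from TAIR10.1 with RefSeq annotation, using Python 3.11.15, NumPy 2.4.6, pandas 2.3.3, and matplotlib 3.10.9.

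Named miRNAs are the members, the 5 most correlated with miR472-3p, and per list, at most 4 of those called, by adjusted p. For the list of secondary small interfering RNA families, the entry called higher and the miR393-5p entry are named as well. Genes with sites were named by the lowest site scores, up to 6, of which 1 is not reported here. The members and lists were chosen with earlier results of these data known. Alternatives were RPM as deposited, trimmed-mean scaling, a pseudocount of 0.1 or 1, no filter, a mean of at least 5 RPM, a replicate block, a GC correction with and without that block, robust moderation, all 24 libraries for within-genotype responses, 0.5 RPM added to both arms, and each library left out.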

Additional observations from a re-analysis of the deposited data

Results flagged for a closer look

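The ABA responses of miR472-3p in mkkk17 and WT Col-0 differed by -2.59 on the log2 scale in the limma test of the difference between genotypes (adjusted p = 0.00742). The same test set the miR825 response in mkkk17 apart from that in WT Col-0 by 1.29 (adjusted p = 0.0348). The miR825 response in mkkk18 differed from that in WT Col-0 by 1.47 (adjusted p = 0.0398). Neither miR825 call was stable. That in mkkk17 was lost without any 1 of 6 libraries and that in mkkk18 without any 1 of 9, and both were lost without a filter, with the replicate block, and with the GC correction (adjusted p from 0.0661 to 0.164). In mkkk17 both differences move with the scaling factors of mkkk17 and WT Col-0. Rescaled within each genotype, the log2 factors of ABA minus mock libraries were 1.40 in mkkk17 and -0.51 in WT Col-0. The differences themselves used all 24 libraries rescaled together. From RPM as deposited the differences were -0.60 for miR472-3p and 2.76 for miR825. Groups of 3 libraries were too small to test single libraries as outlying.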

How the results depend on the processing

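The WT Col-0 calls held under every alternative run, from 1.75 to 2.31 for miR472-3p over 11 alternatives and from -2.07 to -1.11 for miR825 over 10, and without each library in turn (1.91 to 2.69 and -1.78 to -1.46). At a mean of at least 5 RPM, miR825 and miR472-5p were not tested. The depth limits both, since 1 read is 0.0704 to 0.163 RPM.

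From RPM as deposited, the mkkk17 responses were 1.15, 1.01, and 0.71 for miR472-3p, miR472-5p, and miR825, and the miR472-5p differences from WT Col-0 were 0.088 in abi1td, 1.79 in mkkk17, and 0.23 in mkkk18. In that setting the mkkk17 difference of miR472-3p was -0.60, the mkkk18 difference of miR825 was 1.75 (adjusted p = 0.0968), and miR825 in mkkk17 mock was -1.55. These settings differ by their scaling factors. For the other changes below the cause was not tested. The miR825 differences lost their calls without a filter (1.29 and 1.47, adjusted p = 0.0827 and 0.0999, in mkkk17 and mkkk18), and that in mkkk18 with a pseudocount of 0.1 (1.83, adjusted p = 0.0508). With the GC correction they were 0.83 and 1.14 (adjusted p = 0.164 and 0.0782, and 0.193 and 0.0977 with the replicate block), and miR472-5p was 0.19 in WT Col-0 and -0.36 in the mkkk17 difference, with or without the block. Adding 0.5 RPM to both arms gave 0.14 for the mkkk17 arm ratio. Of the 5 miRNAs most like miR472-3p, 5 remained from RPM as deposited and 3 after the GC correction.

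Same-numbered libraries were not treated as pairs in the main fits. Their deviations correlated from -0.32 to 0.50, with means of -0.18 (WT Col-0), -0.07 (abi1td), -0.16 (mkkk17), and 0.16 (mkkk18). So few correlations per genotype cannot tell whether the libraries were paired. With the replicate block, the miR825 differences in mkkk17 and mkkk18 were 1.29 and 1.47 with adjusted p = 0.0661 and 0.0851, and no other member's call changed.

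With each library left out, the mkkk17 responses ranged from -0.54 to 0.35 (miR472-3p), -0.46 to 0.036 (miR472-5p), and -0.52 to 0.056 (miR825), the mkkk17 arm ratio from -0.58 to 0.85, and the mkkk18 response of miR472-3p from 0.44 to 1.19. The miR472-3p differences ranged from -2.23 to -1.26 in abi1td and -1.91 to -1.16 in mkkk18, and the miR825 differences from 1.02 to 1.63 in mkkk17 and 1.28 to 1.61 in mkkk18. The miR472-5p differences ranged from -0.20 to 0.39 in mkkk17 and -0.27 to 0.28 in mkkk18.

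The number of miRNAs called ranged over the alternatives, libraries left out aside, from 49 to 83 in WT Col-0, 0 to 6 in abi1td, 0 to 63 in mkkk17, and 0 to 5 in mkkk18. For the differences of responses it ranged from 0 to 2 in abi1td, 27 to 78 in mkkk17, and 0 to 20 in mkkk18, and in mock from 0 to 1, 0 to 41, and 0 to 4.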
